A study of Homo sapiens
Mus musculus and Homo sapiens with 2 samples.

Results

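The RNAs described here are long intergenic noncoding RNAs (lincRNAs), followed through a metabolic labelling experiment in single cells of established lines. They are the 200 genes with the highest whole counts summed over all A549 cells, out of 5913 genes typed lincRNA in the A549 gene annotation once symbols starting with SNHG were set aside, and out of 43167 genes in all. Whole counts in A549 chose them, so their abundance is given as a description. The least counted of the 200 was RP4-555D20.2 with 1111 counts, and the next genes outside were RP11-267A15.1 with 1101 and CTD-2044J15.2 with 1100. New shares and the response to dexamethasone were not part of the rule. The sum ran over treated and 0 h cultures alike, so an RNA high in a single culture can have been chosen through it. AC007131.2 and AC079807.4, described further on, had most of their counts in a single culture.

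Cells were given 4-thiouridine (S4U), a uridine analog that enters RNA as it is made, and iodoacetamide (IAA) then turned the incorporated analog into base changes that mark a molecule as new. A549, a human lung adenocarcinoma line, had dexamethasone, a synthetic glucocorticoid, for 2, 4, 6, 8 or 10 h, or for 0 h, where the protocol gives control cells the ethanol vehicle. All 6 A549 cultures had 200 µM S4U during the last 2 h. The dose was 100 nM in the protocol and 101 nM in another label. HEK293T, a human embryonic kidney line mixed with the mouse fibroblast line NIH/3T3, had 200 µM S4U for 6 h and IAA in the labelled group, with groups of HEK293T cells that had IAA only, S4U only or neither. A label of the mixture also names dexamethasone, which the protocol gives to A549 alone, so the mixture is taken as untreated. All cells of 1 time or labelling group are called 1 culture here. The labels give no replicate numbers, so whether a group came from 1 dish or more, or groups shared a dish, cannot be told. None of the A549 cells were unlabelled, so the background of the new call in A549 is unknown.

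A549 cultures held 1045 to 1446 cells and 28870594 to 43084614 whole counts, and 20.3 to 22.6% of all counts were new. Labelled HEK293T cells numbered 913, with 6678383 counts of human genes of which 54.7% were new, against 1.24% in the 1025 cells with IAA only, 1.02% with S4U only and 0.888% with neither. The 8 A549 markers together had 24970 CPM (counts per 1000000 counts of all genes) in A549 and 259 CPM in labelled HEK293T. The 6 HEK293T markers had 36.1 CPM in A549 and 340 CPM in labelled HEK293T, where NEFL was at 0. The 7 fibroblast markers summed to 8.47 to 16.4 CPM across the A549 cultures and the 4 leukocyte markers to 6.93 to 10.4 CPM. Sums over a culture cannot tell fewer cells with an RNA from less RNA per cell.

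Long intergenic noncoding RNAs are transcribed by RNA polymerase II from stretches between coding genes, and many are spliced and polyadenylated. Some stay in the nucleus and hold structures together, such as NEAT1 in paraspeckles, others work in the cytoplasm, and several serve mainly as precursors from which microRNAs are cut. In lung cancer cells MALAT1, found in nuclear speckles, is among the best known of them. Under the newer GENCODE 29 annotation 157 of the 200 gene identifiers were found, 135 of them still typed lincRNA and 5 now protein-coding, and 115 carried another symbol. SNORA76 and RP11-304L19.5, kept by the rule, are SNHG25 and SNHG19 there.

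By position on the same strand in GENCODE 29 (GRCh38), 21 of the 157 matched lincRNAs carried 35 annotated microRNA hairpins, 8 in exons and 27 in introns. The hairpins shown are a selection from hosts with large new shares or with a response to dexamethasone described further on. Those of other hosts with such a response, among them MIR4435-1HG, LINC00152, NEAT1, MEG3 and LINC00669, are not shown, nor is MIR2682, the other hairpin of MIR137HG. Sequences are the reference hairpins in DNA letters, and capitals mark the 7 letters commonly given as the seed of the main mature microRNA, which were searched for on the printed strand. Mature ends were not in the tables used here. Hairpins are grouped by these letters. RP6-99M1.2, named MIR222HG in GENCODE 29, carries a pair with GCTACAT, found in 0.213% of the 1881 annotated hairpins.
MIR221: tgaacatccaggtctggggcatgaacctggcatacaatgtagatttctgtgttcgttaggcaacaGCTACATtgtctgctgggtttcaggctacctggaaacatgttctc
MIR222: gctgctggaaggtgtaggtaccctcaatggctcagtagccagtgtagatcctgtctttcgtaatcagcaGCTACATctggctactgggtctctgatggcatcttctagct
MIR181A1HG carries a pair with ACATTCA, found in 0.638% of all hairpins.
MIR181A1: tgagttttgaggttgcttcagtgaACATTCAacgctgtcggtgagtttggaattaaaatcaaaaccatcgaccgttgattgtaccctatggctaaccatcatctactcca
MIR181B1: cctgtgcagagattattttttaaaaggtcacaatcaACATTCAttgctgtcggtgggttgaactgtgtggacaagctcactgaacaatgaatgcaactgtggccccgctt
RP11-2B6.3, which has only a clone-based name, carries 3 hairpins of the let-7 family with GAGGTAG, found in 1.28% of all.
MIRLET7A1: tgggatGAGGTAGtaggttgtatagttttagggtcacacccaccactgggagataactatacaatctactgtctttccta
MIRLET7D: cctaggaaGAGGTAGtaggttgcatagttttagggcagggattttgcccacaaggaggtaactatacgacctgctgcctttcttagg
MIRLET7F1: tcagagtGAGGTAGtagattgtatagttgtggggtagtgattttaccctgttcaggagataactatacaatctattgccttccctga
LINC00472 carries a pair with GTAAACA, found in 0.638% of all.
MIR30A: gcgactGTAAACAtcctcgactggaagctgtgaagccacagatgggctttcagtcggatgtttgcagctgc
MIR30C2: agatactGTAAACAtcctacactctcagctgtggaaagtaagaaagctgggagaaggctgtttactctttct
The gene listed as MIR29B1 is LINC-PINT in GENCODE 29 and carries AGCACCA, found in 0.797%. MIR137HG carries TATTGCT, found in 0.691%, and MIR22HG carries AGCTGCC, found in 0.797%. These 3 hairpins lie in exons, and the 9 before them lie in introns.
MIR29B1: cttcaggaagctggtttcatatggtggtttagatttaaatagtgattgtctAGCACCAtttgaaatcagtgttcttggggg
MIR137: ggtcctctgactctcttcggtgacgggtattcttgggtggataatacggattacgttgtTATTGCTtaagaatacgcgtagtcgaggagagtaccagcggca
MIR22: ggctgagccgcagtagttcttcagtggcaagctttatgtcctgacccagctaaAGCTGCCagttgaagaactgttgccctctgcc

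After 2 h of label the median lincRNA had 42.6% of its A549 counts called new, with quartiles of 23.6 and 58.2%. The median was 25.5% over the 10498 protein-coding genes with at least as many counts, 34.6% over 225 antisense genes and 26.3% over 14 SNHG genes. In labelled HEK293T cells, after 6 h, the 117 lincRNAs with at least 50 counts had a median of 78.4% (quartiles 72.1 and 83.6%), against 71.3% over 10517 protein-coding genes. In HEK293T cells with IAA only, 128 lincRNAs had at least 50 counts and a median of 1.25%, with a highest value of 10.5%. No test was made between these classes. Intervals below are exact Clopper-Pearson 95% intervals that cover counting error only.

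**Figure D1:**
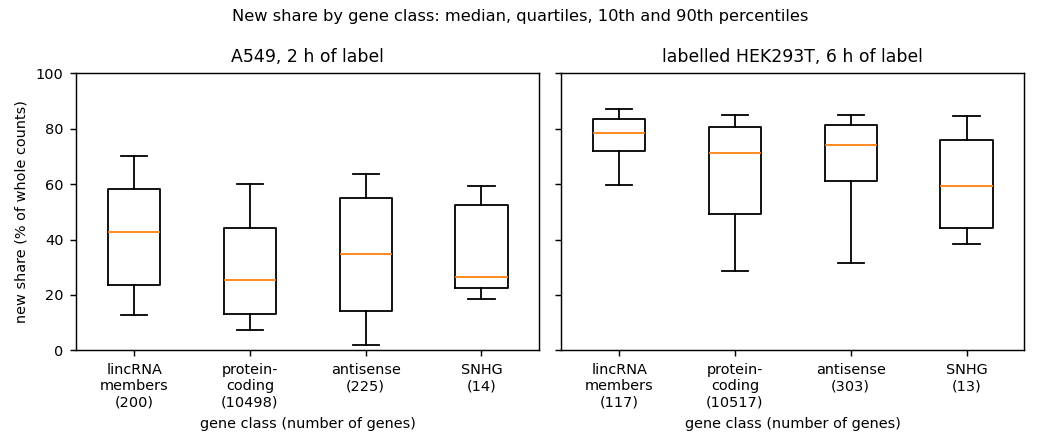
New share (percent of whole counts) of the lincRNAs, protein-coding, antisense and SNHG genes in A549 (left) and labelled HEK293T (right). Boxes show the median and quartiles and whiskers the 10th and 90th percentiles. The lincRNA median stands at 42.6% in A549 and 78.4% in HEK293T, against 25.5% and 71.3% for protein-coding genes.

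Hosts of microRNAs filled much of the upper end. RP11-138A9.1, which carries no annotated hairpin, had the highest share at 86.1% (84.1 to 88.0). RP6-99M1.2, the host of MIR221 and MIR222, followed at 83.6% (82.4 to 84.7), and MIR181A1HG at 83.0% (81.7 to 84.2). CTC-444N24.8 had 82.5%, the let-7 host RP11-2B6.3 82.4%, RP11-151D14.1 80.8%, LINC00472 78.3%, RP11-1114A5.4 78.3%, the gene listed as MIR29B1 78.2% and AC004158.2 75.3%. Of these 10 genes, 5 carry a hairpin.

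Over all 21 hosts found by position the median share was 67.4%, and 17 of them were at least 50% new. The other 136 matched lincRNAs had a median of 44.4%. The split by hairpin was made after the shares had been seen. MIR222HG varied little among the cultures, with 85.1, 82.9, 81.7, 83.4, 85.2 and 82.0% at 0, 2, 4, 6, 8 and 10 h (83.4 ± 1.49, SD, n = 6). In labelled HEK293T it stood at 90.1% (85.9 to 93.4), with 0.685% in cells that had IAA only. Hosts at the lower end were MEG3, an imprinted gene carrying MIR770 and MIR2392, at 22.4%, and RP5-857K21.4 at 20.5%.

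**Figure D2:**
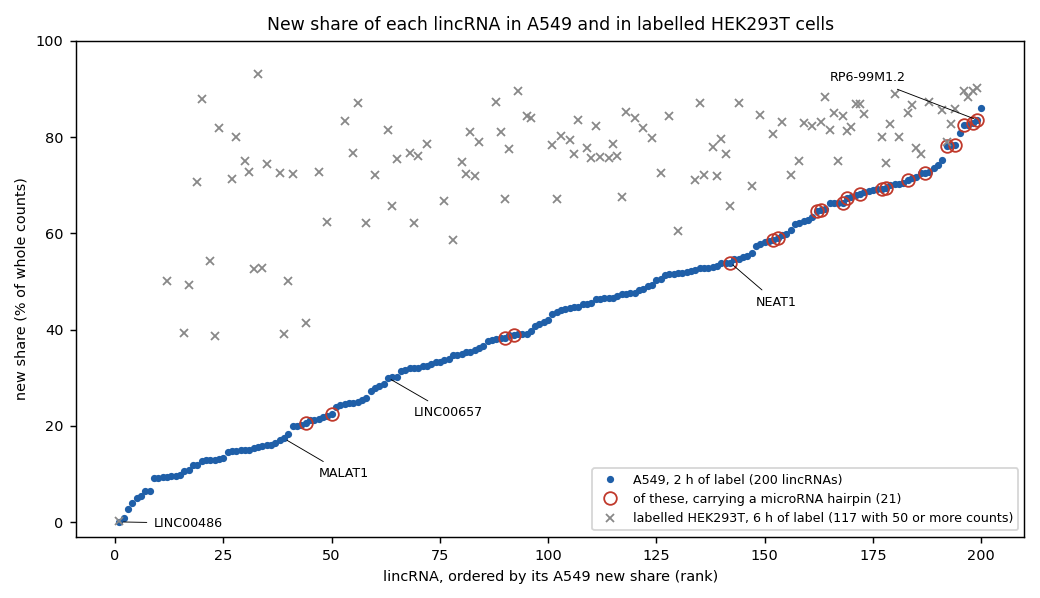
New share (percent of whole counts) of each of the 200 lincRNAs in A549, ordered from lowest to highest, with the 21 that carry a microRNA hairpin ringed and the HEK293T share of the 117 with at least 50 counts as crosses. LINC00486 lies near 0 in both lines, and most rings lie above 50%.

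Nuclear RNAs did not share one value. MALAT1 had 16.6, 18.4, 17.3, 17.9, 17.1 and 16.9% new from 0 to 10 h, and 39.0% (38.1 to 40.0) in labelled HEK293T. NEAT1, the scaffold of paraspeckles, had 56.7, 55.8, 56.4, 55.5, 49.2 and 52.3% in the same order, and 65.8% (62.6 to 68.8) in labelled HEK293T. The ranges of these RNAs over the 6 cultures did not overlap. FTX and JPX, known as activators of XIST in X inactivation, had 58.5% and 45.5% in A549. With MEG3, 5 of the 11 genes on the list of nuclear RNAs were among the 200 by symbol. LINC-PINT is also on this list, and on the list of stress, hypoxia, NRF2 and p53 linked RNAs used further on. It was among the 200 under the symbol MIR29B1, at 78.2% in A549. Lists were matched by symbol, so LINC-PINT is left out of the counts for both lists.

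The cytoplasmic and ribosome-associated list had 4 of 9 genes among the 200. LINC00657, known as NORAD, binds Pumilio proteins in the cytoplasm, and had 30.0% new in A549 (29.6 to 30.4) and 81.4% in labelled HEK293T (79.4 to 83.2). CRNDE was at 12.97% in A549 and 38.6% in HEK293T (32.8 to 44.5). EPB41L4A-AS1 was at 52.3% and LINC00152, named CYTOR in GENCODE 29, at 38.9% in A549. LINC00116, now MTLN and known to encode a small mitochondrial protein, had 12.6% in A549. LINC00493, now the small membrane protein gene SMIM26, had 16.1% there. Both of these stood below the lower quartile of the 200 in A549, but not in labelled HEK293T. There LINC00116 had 87.8% of 82 counts and LINC00493 74.5% of 141 counts, beside a lower quartile of 72.1%. Other lincRNAs now typed protein-coding were not low in A549. NCBP2-AS2 had 36.1%, AC093323.3 32.0% and RP11-258C19.5 47.1% there, above the lower quartile of 23.6%.

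Among the most counted lincRNAs, LINC00842 had 39.0%, LINC00511 71.6%, TTTY14 13.2%, LINC00473 57.3%, LINC00669 68.2%, RP11-81N13.1 25.7%, CTC-228N24.3 45.3%, MIR4435-1HG 38.3% and RP11-123O10.4 44.7%. Across all 200, 76 were at least 50% new and 15 were under 10%. The lowest were LINC00486 at 0.0409%, CTD-2007L18.5 at 0.906% (15 of 1656 counts), the gene ENSG00000258946 at 2.64%, LINC01963 (its GENCODE 29 symbol) at 4.03%, RP11-252A24.7 at 5.07%, AC007131.2 at 5.37%, ENSG00000261452 at 6.43%, AC004257.3 at 6.48%, RP11-178G16.4 at 9.23% and RP11-572C15.6 at 9.26%. No role is given for them in the tables used here.

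The order of shares was partly alike in both lines. Over the 117 lincRNAs with at least 50 HEK293T counts, Spearman's rho between A549 and HEK293T shares was 0.56 and Pearson's r 0.59, across genes that share the 2 libraries and the calling. The highest in HEK293T were RP11-53O19.3 at 93.1%, MIR222HG, RP11-343N15.5 at 89.7%, MIR181A1HG at 89.5%, RP11-2B6.3 at 89.5%, RP11-25H12.1 at 89.0%, CTC-444N24.8 at 88.4% and LINC01036 at 88.3%. The largest contrast among them was RP11-53O19.3, at 15.7% in A549. The lowest above LINC00486 were CRNDE, MALAT1, RP11-498C9.15 at 39.3%, RP5-857K21.4 at 41.4%, RP11-114G22.1 at 49.3%, RP11-145M9.4 at 50.0% and RP11-620J15.3 at 50.0%. Label times differed, so the levels of the lines are side by side only.

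Sequence and structure followed the share loosely. Over the 157 matched lincRNAs, rho between the A549 share and the percent of T (U in the RNA) in the longest transcript was 0.08, and between the share and the span of the gene 0.21. Over 10415 protein-coding genes these were 0.25 and 0.44. The 41 lincRNAs spanning under 10000 bp had a median of 32.8%, the 56 spanning at least 100000 bp 49.1% and the 60 between them 49.0%. The 43 unmatched lincRNAs had a median of 24.6%, against 46.4% in the matched ones.

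LINC00486 needs a separate account. It held 720844 A549 counts, of which 295 were new, and its level was 3214, 3355, 3377, 3447, 3245 and 3314 CPM from 0 to 10 h. In the mixture it had 1890 CPM in the 3132 cells called NIH/3T3, against 1906 CPM in the 3006 cells called HEK293T. MALAT1 had 1.25 CPM in the mouse cells and 1654 CPM in the human cells, and counts of human genes made up 0.482% of the mouse cells' counts. Counts of LINC00486 were present in 98.4% of the mouse cells and 99.0% of the human cells. Its share in HEK293T was 0.304% (0.230 to 0.395) with label and 0.228% with IAA only, so it is not read here as expression of a human gene.

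All 200 lincRNAs together made up 1.35% of A549 whole counts and 1.52% of new counts. MALAT1 and LINC00486 held 58.7% of these whole counts. The pooled share was 23.8% in A549, 31.6% without LINC00486 and 43.3% without both. In labelled HEK293T it was 51.6%, 70.3% without LINC00486 and 78.7% without both. By culture it was 24.1, 24.0, 22.9, 24.5, 23.8 and 23.3% from 0 to 10 h, and the median lincRNA had 40.9, 38.4, 41.5, 45.5, 42.8 and 43.8%.

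**Figure D3:**
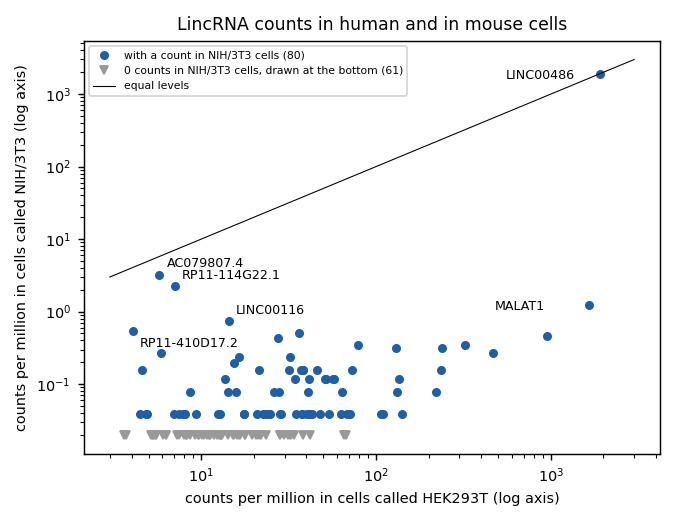
CPM of the 141 lincRNAs with at least 100 counts in cells called HEK293T (x axis, log) and in cells called NIH/3T3 (y axis, log), with the line of equal levels. The 61 lincRNAs without a count in the mouse cells are drawn at the bottom. LINC00486 lies on the line at 1906 and 1890 CPM, and MALAT1 lies far under it.

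Few lincRNAs were called in whole RNA between the treated cultures and 0 h. The comparison sets the mean of the 5 treated cultures against the 0 h culture. An RNA that moved at only some of these times can be missed. MIR22HG, whose rise over time is described further on, had a log2 change of 0.57 here and was not called. The lone 0 h culture was assumed to vary like the treated ones. Of the 200, 2 rose and 2 fell at an adjusted p under 0.05 (edgeR quasi-likelihood test, Benjamini-Hochberg over all genes). That is 2.0% of them, beside 0.878% of the 22894 genes tested (0.603% higher and 0.275% lower) and 1.37% of the genes with at least 1111 counts. The median log2 change was -0.04 over the lincRNAs and 0.00 over all genes. Without the 2 h culture 25 were called, and without the 6 h or the 8 h culture 1.

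LINC00511, an RNA studied in several cancers, had 421, 338, 336, 351 and 362 CPM at 2 to 10 h, against 203 CPM at 0 h. Each treated culture stood above 0 h (log2 change 0.86 ± 0.13 SE, adjusted p = 0.0263). The call was lost without the 4, 6, 8 or 10 h culture (adjusted p = 0.0550 to 0.0747). LINC00886 had 19.6, 20.5, 19.2, 16.5 and 17.1 CPM with dexamethasone, against 8.44 CPM at 0 h (1.17 ± 0.15 SE, adjusted p = 0.0161), and missed the threshold without the 6 h culture. MIR137HG, the host of MIR137, had 7.03, 6.06, 7.33, 7.46 and 6.78 CPM, against 13.8 CPM at 0 h (-0.97 ± 0.13 SE, adjusted p = 0.0183), and missed it without the 6 h or the 8 h culture. All 5 treated values lay on one side of the 0 h value in both.

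AC007131.2 was the remaining call, with 2.41, 2.60, 8.08, 2.09 and 2.08 CPM against 38.5 CPM at 0 h (-3.43 ± 0.55 SE, adjusted p = 0.0372). Its counts sat in few cells. With dexamethasone it had 86 counts in 69 cells at 2 h, 75 in 65 at 4 h, 348 in 119 at 6 h, 72 in 64 at 8 h and 85 in 76 at 10 h, against 1290 counts in 86 cells at 0 h. Without the 0 h culture it had fewer than the 1111 counts of the least counted lincRNA, so it was chosen through the culture where it was high. The highest count in a cell was 178, and 77.1% of its A549 counts lay in the 1% of cells with most, where the median lincRNA had 11.2%. The call was lost without the 4, 8 or 10 h culture (adjusted p = 0.0727 to 0.122). In the mixture it had 2.77 CPM in cells called NIH/3T3 and 2.98 CPM in cells called HEK293T. These levels are close to each other, as for LINC00486. Whether its counts are expression of a human gene was not tested, so its fall is uncertain.

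New RNA gave more calls. Of the 199 lincRNAs tested there, 6 rose and 7 fell, which is 6.53% of them, beside 6.00% of the 17507 genes tested (3.82% higher and 2.18% lower) and 8.07% of the genes with at least 1111 counts. CTD-2007L18.5 was left out by the filter on low counts. LINC00511, LINC00886 and MIR137HG were called in whole and new RNA alike. Without the 2 h culture 32 were called. Of the 13, 8 were called under every alternative that was run: LINC00472, LINC00511, LINC00886, LUCAT1, MIR137HG, RP11-25H12.1, RP11-85M11.2 and RP11-89K21.1.

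**Figure D4:**
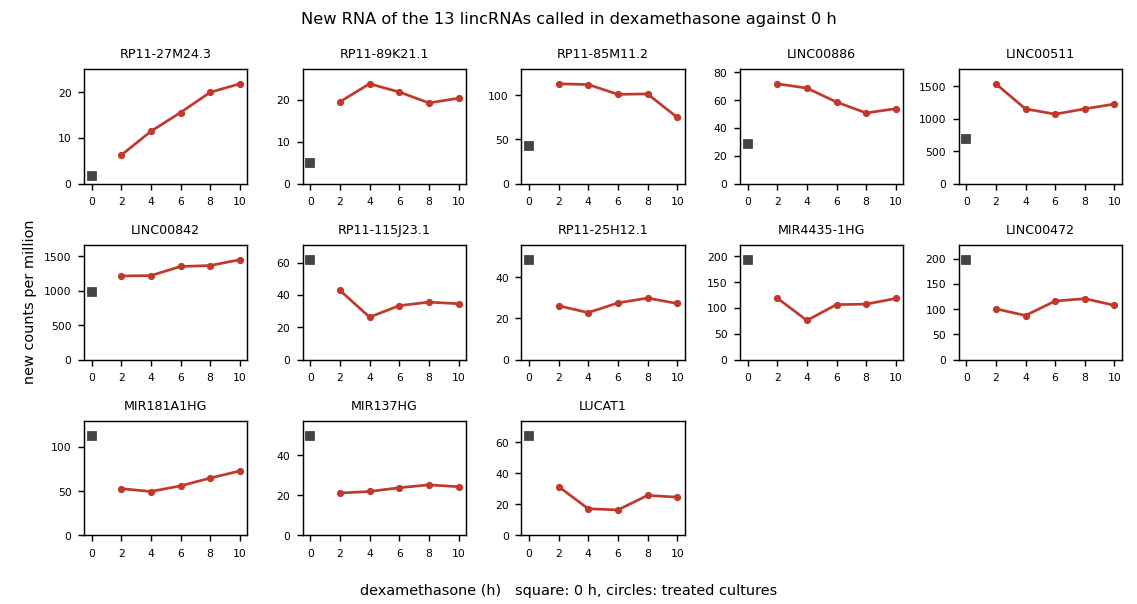
New CPM of the 13 lincRNAs called in new RNA, at 2 to 10 h of dexamethasone (circles) and at 0 h (square), ordered from the largest rise to the largest fall, with 1 culture per point. In every panel the 5 circles lie on one side of the square. The genes were chosen by this same comparison, so this is a description and no further evidence for the calls.

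The largest rises were in RNAs that lie beside coding genes. RP11-89K21.1, LINC01833 in GENCODE 29, had 19.6, 23.9, 21.9, 19.3 and 20.4 new CPM at 2 to 10 h, against 5.00 at 0 h. Every treated culture was at least 19.3, well over the 0 h value (log2 2.13 ± 0.21 SE, adjusted p = 0.000522). Its nearest coding gene is SIX3, which encodes a homeobox factor and lies 2699 bp away on the opposite strand in GRCh38. New RNA of SIX3 rose by 3.23 on the log2 scale (± 0.60 SE, adjusted p = 0.0129). In whole RNA RP11-89K21.1 had a log2 change of 1.64 with an adjusted p of 0.0657.

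RP11-27M24.3, LINC01290 in GENCODE 29, lies 220 bp from EMP2 on the same strand. EMP2 encodes an epithelial membrane protein. The lincRNA had 6.20, 11.4, 15.5, 20.0 and 21.8 new CPM from 2 to 10 h, against 1.72 at 0 h, where 12 new counts were found. Each later culture stood above the one before (log2 3.20 ± 0.78 SE against 0 h, adjusted p = 0.0429, lost without the 4, 6 or 8 h culture at 0.0659 to 0.0960). EMP2 rose in new RNA by 2.68 ± 0.59 SE (adjusted p = 0.0269). The sources used here do not say how reads between such neighbours were assigned.

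RP11-85M11.2 had 113, 112, 101, 102 and 75.01 new CPM with dexamethasone against 42.3 at 0 h (1.31 ± 0.21 SE, adjusted p = 0.00656). LINC00886 had 71.8, 68.7, 58.6, 50.8 and 53.9 against 28.5 (1.16 ± 0.20 SE). LINC00511 had 1537, 1150, 1069, 1151 and 1225 against 685 (0.91 ± 0.18 SE). These 3 were highest at 2 h, whereas LINC00842 had 1216, 1221, 1355, 1368 and 1452 against 986 and was highest at 10 h. The change of LINC00842 was the smallest of the 6, at 0.49 ± 0.12 SE (adjusted p = 0.0390), and was lost without the 6 h or the 8 h culture.

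The falls included 4 of the 21 hosts of microRNA hairpins found by position, beside 2.18% of all genes called lower. The other hosts were not called in either direction. MIR137HG had 21.2, 22.0, 23.9, 25.3 and 24.4 new CPM at 2 to 10 h, against 49.9 at 0 h (-1.02 ± 0.13 SE, adjusted p = 0.00221). MIR181A1HG had 52.6, 49.4, 55.8, 64.5 and 72.6 against 112 (-0.85 ± 0.18 SE, adjusted p = 0.0201, and 0.0645 without the 6 h culture). All values with dexamethasone were below 0 h in both. LINC00472, the host of MIR30A and MIR30C2, had 100, 87.1, 116, 121 and 107 against 198 (-0.82 ± 0.15 SE, adjusted p = 0.0114).

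MIR4435-1HG had 119, 75.9, 106, 108 and 119 against 194 (-0.80 ± 0.19 SE, adjusted p = 0.0385), lost without the 6 h or the 8 h culture. It is known as a near-identical copy of LINC00152, so reads may be split between them and both are uncertain. On the list of microRNA hosts chosen by symbol, 3 of 6 fell in new RNA and none rose, beside 2.18% of all genes called lower. These 3 are among the falling hosts found by position, so they are no separate evidence. The list had a median log2 change of -0.80. LINC00478, the host of MIR99A, had -0.81 with an adjusted p of 0.0540. MIR22HG had 0.68 and MIR4500HG -0.28, neither past the threshold.

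LUCAT1, known as a stress-responsive target of NRF2, had 31.6, 17.2, 16.5, 25.8 and 24.7 new CPM with dexamethasone against 64.3 at 0 h. Its lowest values were at 4 and 6 h (-1.40 ± 0.27 SE, adjusted p = 0.0143). Its new share was 27.1, 22.2, 32.3, 42.4 and 40.4% at 2 to 10 h, and 40.7% at 0 h. RP11-25H12.1 fell by 0.79 on the log2 scale and RP11-115J23.1 by 0.77, the second losing its call without the 6, 8 or 10 h culture. On the stress, hypoxia, NRF2 and p53 list LUCAT1 was the single call among 5 members tested of 11 listed, and on the MYC and proliferation list LINC00511 was the single call among 5 of 11.

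Coding genes next to these lincRNAs were looked at in the same fit. Of the 13 called in new RNA, 12 had a nearest coding gene in the annotation, 10 of these genes could be tested, and 2 rose with their lincRNA, SIX3 and EMP2. None of the 10 was called in the other direction. DPYD, which overlaps MIR137HG on the same strand and encodes a pyrimidine-degrading enzyme, had a log2 change of -0.32 with an adjusted p of 0.533. OGFRL1 beside LINC00472 had 0.33 with an adjusted p of 0.178, and SLC39A11, a zinc transporter gene beside LINC00511, had 0.17 with an adjusted p of 0.511.

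Whether new RNA changed unlike pre-existing RNA was tested as an interaction. None of the 200 lincRNAs passed, beside 0.00% of the 22440 genes tested with edgeR. At an unadjusted p under 0.05 there were 8 of the 200 (4.0%), beside 5.42% of all genes, and DESeq2 called none of the 200. The lowest unadjusted p was that of AC007131.2, followed by RP11-178G16.4, LINC00842 and RP11-27M24.3. RP11-27M24.3 had a new share of 53.6, 54.0, 49.0, 46.4 and 46.6% with dexamethasone, against 26.7% of 45 counts at 0 h.

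Over the treated times alone, a slope per hour was fitted. A called slope does not by itself tell a steady change from a step between neighbouring times, or from a return toward the level without dexamethasone. In whole RNA 18 lincRNAs had a rising slope and 19 a falling one, 18.5% of the 200, beside 12.6% of the 21493 genes tested (6.10% rising and 6.53% falling) and 20.9% of the genes with at least 1111 counts. Without the 10 h culture the count was 24. In new RNA 13 rose and 11 fell of 198 tested, 12.1% beside 7.70% of 16366 genes (3.55% rising and 4.15% falling) and 10.4% of those with at least 1111 counts. Without the 8 h culture it was 12 and without the 10 h culture 13. CTD-2007L18.5 and ENSG00000258946 were left out by the filter. Slopes were called in both kinds of RNA for 18 lincRNAs, all with the same sign, from counts that share the new molecules. This overlap was not counted over all genes, so it is not read as a trait of lincRNAs.

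**Figure D5:**
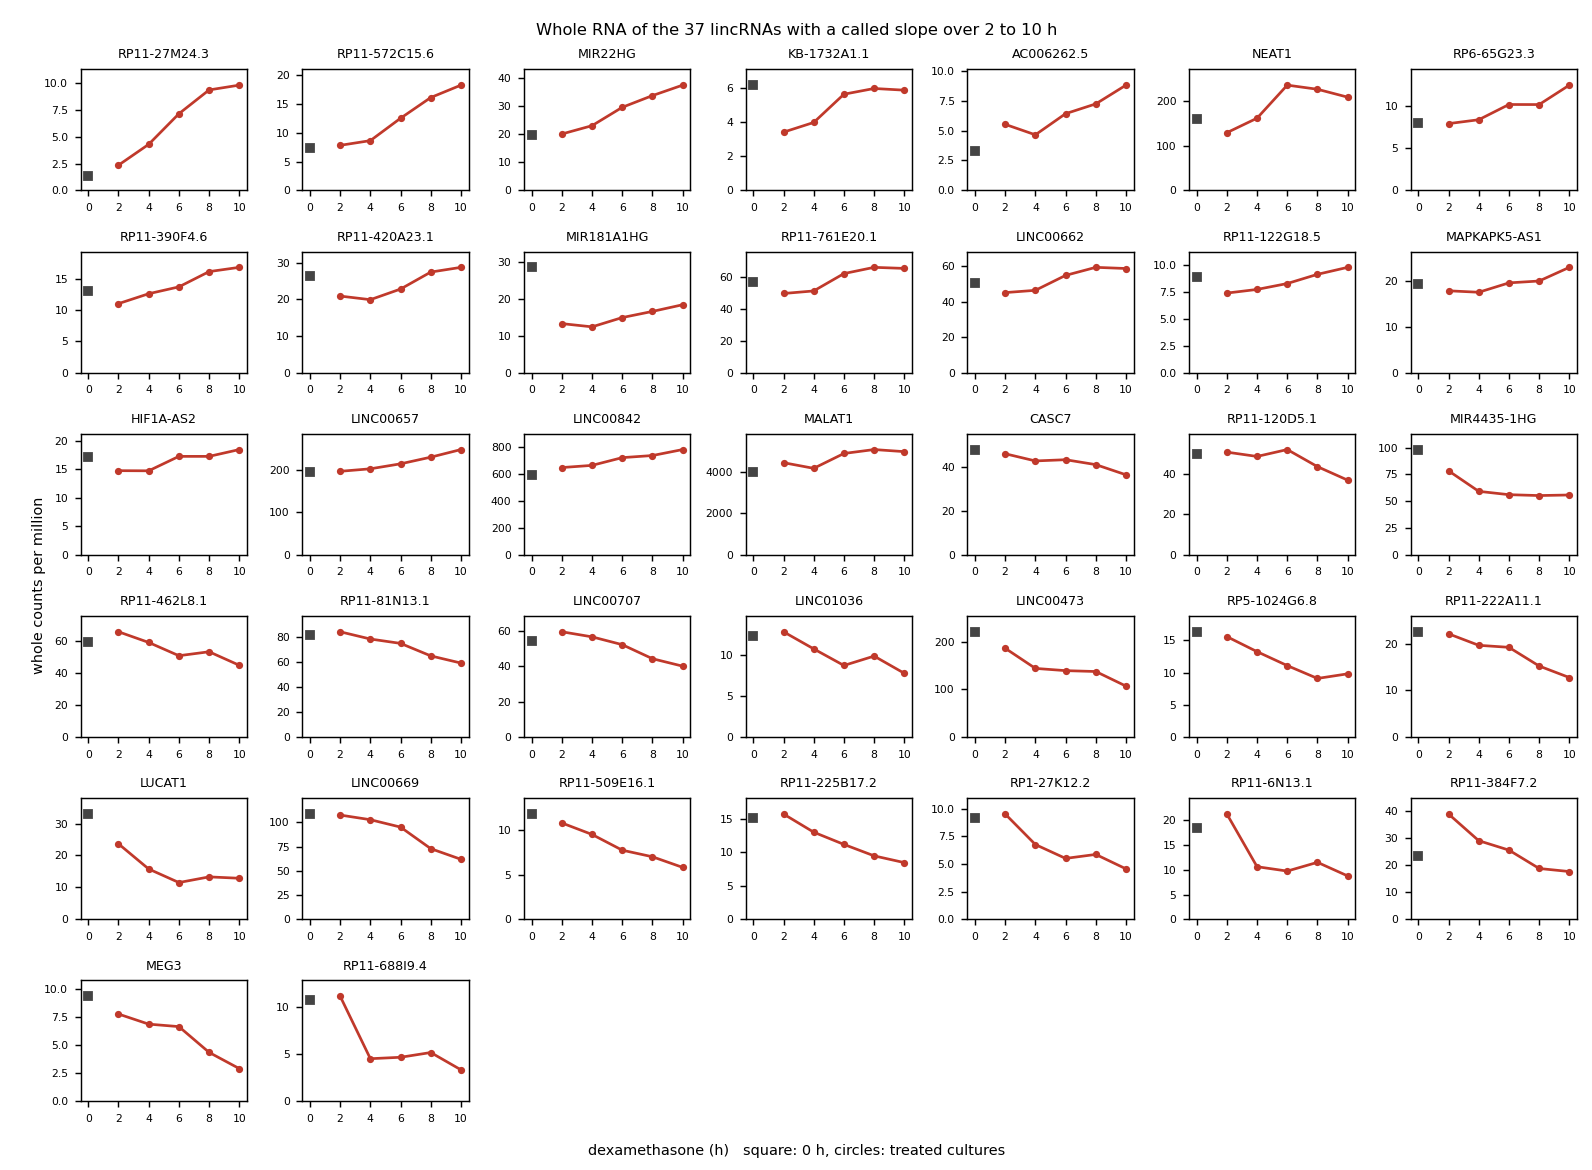
Whole CPM of the 37 lincRNAs with a called slope over 2 to 10 h of dexamethasone (circles), with 0 h as a square, ordered from the steepest rise to the steepest fall. RP11-27M24.3 stands at 2.35 CPM at 2 h and 9.82 CPM at 10 h, and RP11-384F7.2 at 38.8 CPM and 17.6 CPM at these times.

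MIR22HG, the host of MIR22, rose steadily. It had 19.8, 20.07, 23.0, 29.6, 33.7 and 37.5 whole CPM from 0 to 10 h, so the 0 and 2 h cultures were alike and each later one was higher. Its slope was 0.12 ± 0.01 SE per hour on the log2 scale in whole RNA (adjusted p = 0.000237) and 0.12 ± 0.01 SE in new RNA (adjusted p = 0.000704), and both calls stood under every alternative. It overlaps WDR81 on the opposite strand, and whether counting used strand is not stated in the labels. WDR81 had a whole slope of 0.03 with an adjusted p of 0.106. RP11-27M24.3 had the steepest rise, 0.25 ± 0.03 SE per hour in whole RNA, beside 0.29 ± 0.01 SE for EMP2.

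RP11-572C15.6 had 7.40, 7.84, 8.66, 12.6, 16.2 and 18.3 whole CPM from 0 to 10 h (0.17 ± 0.02 SE per hour, adjusted p = 0.000308). Its new share was among the lowest, and its slope in new RNA was not called. Of the 5 nuclear RNAs on the list, NEAT1 and MALAT1 had a rising slope in whole RNA and MEG3 a falling one. NEAT1 had 160, 129, 162, 235, 226 and 209 CPM (0.09 ± 0.02 SE per hour, adjusted p = 0.0337), and missed the threshold without the 2, 4 or 8 h culture and with DESeq2. MALAT1 had 3990, 4444, 4172, 4888, 5077 and 4977 CPM (0.03 ± 0.01 SE per hour, adjusted p = 0.0352), and missed it without the 8 h or the 10 h culture. LINC00657 had 196, 197, 203, 214, 230 and 248 CPM and kept its whole slope of 0.04 ± 0.01 SE per hour under every alternative (adjusted p = 0.00329).

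Other risers in whole RNA were KB-1732A1.1 at 0.11 per hour, AC006262.5 at 0.10, RP6-65G23.3, RP11-390F4.6, RP11-420A23.1 and MIR181A1HG at 0.07 to 0.08, DANT2 (its GENCODE 29 symbol) at 0.06 and LINC00662 at 0.06. Of these, LINC00662, RP11-390F4.6 and DANT2 were called under every alternative. MIR181A1HG had a log2 change of -0.89 against 0 h in whole RNA, not called, so its slope starts below the 0 h level. RP11-390F4.6 lies 173 bp from GLDC, a gene of glycine breakdown, on the opposite strand. GLDC rose too, by 0.09 ± 0.01 SE per hour. In new RNA LINC00152 had 49.1, 49.6, 71.3, 76.1 and 86.2 CPM from 2 to 10 h (0.11 ± 0.02 SE per hour, adjusted p = 0.00186), after 105 CPM at 0 h. HIF1A-AS2 had 0.15 per hour in new RNA, a call lost without the 2, 4, 8 or 10 h culture, and overlaps HIF1A on the opposite strand, whose slope was 0.05 (adjusted p = 0.0120).

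Among the falling RNAs, RP11-384F7.2 had 38.8, 28.96, 25.5, 18.7 and 17.6 whole CPM from 2 to 10 h, after 23.5 CPM at 0 h. It was thus above 0 h at 2 h and below it at 8 and 10 h (-0.14 ± 0.01 SE per hour, adjusted p = 0.000247). MEG3 had 9.33, 7.75, 6.86, 6.64, 4.35 and 2.91 CPM from 0 to 10 h, lower at each time (-0.17 ± 0.03 SE per hour, adjusted p = 0.00481), and missed the threshold without the 10 h culture. LINC00473, known to be induced by cAMP signalling, had 221, 186, 144, 139, 137 and 107 CPM (-0.08 ± 0.01 SE per hour, adjusted p = 0.00279). LINC00669 had 109, 107, 103, 95.02, 72.8 and 61.8 CPM (-0.10 ± 0.01 SE per hour).

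RP11-688I9.4 had the steepest whole slope of the falls, -0.18 per hour, with 11.2 CPM at 2 h and 3.35 to 5.19 CPM afterwards. Its call was lost without the 2 h or the 10 h culture and with DESeq2. RP11-6N13.1 at -0.13, RP1-27K12.2 at -0.12 and LUCAT1 at -0.10 were likewise lost without the 2 h culture. RP11-6N13.1 was also lost without the 8 h or the 10 h culture and with DESeq2, RP1-27K12.2 without the 10 h culture, and LUCAT1 without the 4 h or the 8 h culture and with DESeq2. RP11-225B17.2 at -0.11 and ENSG00000261452 at -0.11 were called under every alternative, as were LINC00707 at -0.07, RP11-222A11.1 at -0.10 and RP11-81N13.1 at -0.06. RP11-222A11.1 fell while its nearest coding gene, CTNNA3, which encodes a catenin of cell junctions, rose by 0.15 ± 0.01 SE per hour. In new RNA LINC01021, known as PURPL and induced by p53, had -0.05 per hour with an adjusted p of 0.04998, at the threshold.

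Across the slopes in whole RNA, 27 nearest coding genes could be tested. Of these 5 were called in the direction of their lincRNA and 2 in the other. Called slopes made up 12.6% of all genes and 20.9% of those with at least 1111 counts. In new RNA 18 could be tested, with 5 called in the same direction and 1 in the other. There 7.70% of all genes were called and 10.4% of those with at least 1111 counts. Of the 200 lincRNAs, 50 were called in at least 1 of the 4 fits with calls, and 150 in none. That share was not taken over all genes, so the 50 is not read as a trait of lincRNAs. For the lists below, 6.10% of all genes rose and 6.53% fell over time in whole RNA. In new RNA these were 3.55% and 4.15%. On the nuclear list none of the 5 was called against 0 h in whole or new RNA, and none had a called slope in new RNA. On the cytoplasmic and ribosome-associated list none of the 4 was called against 0 h, 1 rose over time in whole RNA (LINC00657) and 2 rose in new RNA (LINC00657 and LINC00152). The 2 small-protein genes, of 8 listed, were called in none of these fits. On the stress list 2 rose and 1 fell over time in whole RNA, and 1 rose and 1 fell in new RNA. On the list of hosts 2 rose and 1 fell over time in whole RNA and 2 rose in new RNA. The 2 that rose were MIR22HG and MIR181A1HG in both, the second from below its 0 h level. On the MYC and proliferation list LINC00152 alone had a called slope, in new RNA.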

How the data were processed

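The authors deposited raw counts of whole and of new RNA per gene and cell, made on hg19 and mm10. The submitters' processing notes name STAR 2.5.2b, Picard 1.105, Trim Galore 0.4.1 and SAMtools 1.3. The sources used here do not say how new molecules were called, how duplicates were collapsed or whether strand was used. The deposited cell annotation gave each cell's time or labelling group, the authors' species call, a fraction of mutated reads that was not used for the shares, and the authors' doublet score, at most 0.191. No doublet caller was run, and no cell was removed from A549. The 200 members and all lists were chosen with earlier results of these data known.

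Counts were summed over the cells of each culture, which is all cells of 1 time or labelling group. The new share is new over whole counts. CPM divides counts by the culture's total of whole or of new counts. Tests ran in R 4.3.3 with edgeR 4.0.16 (quasi-likelihood F test), TMM factors and filterByExpr (minimum count 10), over all genes, with Benjamini-Hochberg adjustment at 0.05. There were 4 residual degrees of freedom against 0 h and 3 for slopes. P-values measure the spread between single cultures of different times, which holds change over time as well as culture differences. Standard errors come from the fitted change and its F statistic. The scripts were tested on simulated data. DESeq2 1.42.0, RLE factors, no low-count filter and leaving out each culture were alternatives. Pooled shares without LINC00486, and the background of genes with at least 1111 counts, were added after seeing the data. Names, hairpins and neighbours come from GENCODE 29 (GRCh38), matched by gene identifier, and no coordinates were carried between builds. Named genes were the 15 with most counts, the 10 highest and 10 lowest shares in A549 (8 each in HEK293T), up to 12 called genes per direction and fit with the largest change, members of the lists by role and the nearest coding genes. MIR770, MIR2392, DPYD, OGFRL1, SLC39A11, WDR81 and hosts found by position were named after their values were seen.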

Additional observations from a re-analysis of the deposited data

Results flagged for a closer look

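LINC00486 had 1890 CPM in cells called NIH/3T3, a mouse line, which is data outside the comparisons. The other lincRNAs with at least 100 HEK293T counts and a mouse-cell level over 5% of the HEK293T level were AC079807.4 with 3.24 CPM in NIH/3T3 cells and 5.75 CPM in HEK293T cells, RP11-114G22.1 with 2.26 and 7.08 CPM, RP11-410D17.2 with 0.546 and 4.06 CPM, and LINC00116 with 0.741 and 14.4 CPM. The median over 141 such lincRNAs was 0.0620% of the HEK293T level.

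AC007131.2 had 8.08 whole CPM in the 6 h culture, apart from 2.08 to 2.60 CPM in the other 4 treated cultures. The new share of CTC-228N24.3 was 47.6% in the 2 h culture and 44.4 to 45.4% in the other 5. ENSG00000258946 had 5.04% in the 10 h culture and 1.52 to 2.65% in the other 5. Among 34 lincRNA shares and 17 called values looked at in this way, chance gives about 1 in 20.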

How the results depend on the processing

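No called change of a named lincRNA turned round under any alternative. Against 0 h, the whole RNA count of 4 lincRNAs became 16 with DESeq2 and 10 with no low-count filter, and 1 to 25 when each treated culture was left out in turn. Over all genes the 201 calls became 786 and 451, and 75 to 1600. In new RNA the 13 lincRNAs became 25 with no filter and 9 to 32 with a culture left out, and the 1050 genes became 629 to 2022. The interaction of RNA kind with dexamethasone, with 0 calls, gave 2 lincRNAs and 183 genes with no filter, 13 genes with DESeq2, and 0 to 1 lincRNAs and 0 to 36 genes with a culture left out. Slopes in new RNA gave 12 to 29 lincRNAs and 506 to 1164 genes, and slopes in whole RNA 24 to 36 lincRNAs and 1414 to 2569 genes. The higher whole RNA counts came without the 2 h culture, and the cause was not tested. RLE factors left each count within 1.5 times.

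The median share in A549 ran from 41.9 to 43.2% with a culture left out. The pooled A549 share of 23.8% became 27.2% without MALAT1, 26.6% without MALAT1 and NEAT1, 31.6% without LINC00486 and 43.3% without MALAT1 and LINC00486. In labelled HEK293T the 51.6% became 53.9, 53.7, 70.3 and 78.7% in the same order. No paired analysis was possible because there was 1 culture per time and the labels give no replicate numbers. Depth limits the 83 lincRNAs with under 50 counts in labelled HEK293T, whose shares there were left out of the median.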

Other observations

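AC079807.4 had 95, 85, 931, 90, 64 and 73 whole counts from 0 to 10 h, and 72.8% of its A549 counts lay in the 1% of cells with most. Its new share was 2.69% at 4 h and 18.8 to 31.6% in the other 5 cultures, the widest range of the 200 lincRNAs at 28.9 percentage points, where the median range was 7.03 points. MIR137HG had 61.4% new at 2 h and 73.4 to 75.5% in the other cultures. LINC00152 had 24.2% new at 2 h and 30.7% at 4 h, against 40.5% at 0 h and 43.5 to 47.4% from 6 h on. Among the 157 matched lincRNAs, 31 lay within 1000 bp of a coding gene without overlap, 28 of them on the opposite strand, and these 28 had a median A549 share of 37.4%.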
